A study of Mus musculus with 12 samples.

Results

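Arntl, Clock, Npas2, Rora, Nr1d1 and Nr1d2 are 6 genes of the circadian transcription loop, and their transcripts were followed in frontal cortex of male C57BL/6 mice. They were picked by symbol out of a count table of 47069 genes, 17286 of which had enough counts to be tested, and all 6 were tested. The symbols were chosen with earlier results of the same libraries known, among them the low Nr1d1 level of wild-type mice given clozapine and its interaction with genotype. Those Nr1d1 values are therefore given below as a description with no test, and the adjusted p-values of the other genes describe the fit across all genes and are not independent evidence.

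The 12 libraries formed 4 groups of 3. HDAC2(loxP,loxP), CamKIIa-Cre(+,-) mice, called the labelled knockout here, received clozapine at 10 mg/kg (libraries 3, 4 and 5) or vehicle (libraries 2, 4 and 5). Wild-type mice received clozapine at 10 mg/kg (libraries 2, 3 and 5) or vehicle (libraries 1, 3 and 4). Dosing was chronic, and the sources used here give neither the age of the mice nor the hour at which tissue was taken. Clozapine is an antipsychotic drug, and Hdac2 encodes a histone deacetylase. A Camk2a promoter drives Cre mainly in excitatory forebrain neurons, so glia and most other cells of the tissue keep their Hdac2 alleles.

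The circadian clock of mammals is a feedback loop of transcription. BMAL1 (encoded by Arntl) pairs with CLOCK or with its relative NPAS2, and the pair binds E-box DNA elements and activates, among others, the genes of the nuclear receptors REV-ERBα (Nr1d1) and REV-ERBβ (Nr1d2). The REV-ERBs repress Arntl, and also Clock and Npas2, through ROR response elements, to which RORα (encoded by Rora) binds as an activator. In mouse tissues the Arntl and Nr1d1 transcripts accordingly peak at opposite times of day. NPAS2 is prominent in mouse forebrain and can take the place of CLOCK in the loop.

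The promoter windows of Arntl and Nr1d1 are printed because their transcripts stand at opposite ends of the loop and gave opposite differences between genotypes under clozapine. Both are RefSeq windows on GRCm38.p6 from 250 bases before to 50 bases after an annotated start, written 5′ to 3′ on the gene's own strand. Capitals mark matches to the motifs searched on both strands, which were CACGTG (E-box), CACGTT (E-box variant), AGGTCA (nuclear receptor half-site), TAGGTCA and TAGGTTA (ROR element cores; TAGGTCA contains AGGTCA) and TTATGTAA (D-box).
Arntl (second annotated start, chr7:113207261-113207560, plus strand): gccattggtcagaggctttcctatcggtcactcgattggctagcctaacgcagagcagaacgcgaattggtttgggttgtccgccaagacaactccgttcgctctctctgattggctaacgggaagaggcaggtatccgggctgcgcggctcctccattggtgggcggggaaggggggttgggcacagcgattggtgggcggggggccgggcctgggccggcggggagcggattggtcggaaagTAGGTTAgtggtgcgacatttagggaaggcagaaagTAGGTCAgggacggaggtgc
Nr1d1 (chr11:98775328-98775627, minus strand): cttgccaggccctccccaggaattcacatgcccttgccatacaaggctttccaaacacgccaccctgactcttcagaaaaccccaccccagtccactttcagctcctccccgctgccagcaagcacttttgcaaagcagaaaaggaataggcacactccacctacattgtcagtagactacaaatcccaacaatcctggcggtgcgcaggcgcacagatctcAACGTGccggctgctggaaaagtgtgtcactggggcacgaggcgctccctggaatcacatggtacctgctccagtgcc

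Arntl had 2 windows, and the printed one was picked because it held TAGGTCA, so that match is no finding. The printed Arntl window held TAGGTTA from base -6 and TAGGTCA from base 31, counted from the start as base 1 with no base 0. The other Arntl window held TAGGTTA from base 41 and no TAGGTCA. Of 32851 promoter windows of the same length, 2.61% held TAGGTCA and 1.44% held TAGGTTA on either strand. The Nr1d1 window held CACGTT on the reverse strand, printed as AACGTG, from base -28, and 4.68% of windows held that motif. CACGTG, present in 7.15% of windows, was in none of the 9 windows of the 6 genes, and neither was TTATGTAA, present in 0.938%. AGGTCA, found in 16.3% of windows, was also in the Nr1d2 window and in 1 of the 3 Clock windows.

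Hdac2 transcripts were not lower in the labelled knockout. Hdac2 was at 71.9 ± 1.81 CPM in knockout clozapine and 75.1 ± 1.67 CPM in knockout vehicle, against 73.8 ± 1.61 CPM in wild-type clozapine and 69.7 ± 6.14 CPM in wild-type vehicle (SD, n = 3 each; CPM is the count scaled to the library size). These counts span the whole gene and cannot show the loss of a few exons, so the genotypes are given as labelled. Library totals ran from 23408372 to 28069638 counts, and every value of the 6 genes rests on at least 687 counts. Libraries of a group were further apart than sampling of reads gives (chi-square divided by genes, 4.38 to 10.1). Wild-type vehicle 3 stood apart in Ttr, a choroid plexus gene, at 53.3 CPM against 0.29 to 4.15 CPM in the other libraries. Markers of excitatory neurons, interneurons, astrocytes and oligodendrocytes were detected in every library, with summed levels of at least 5420, 817, 793 and 1150 CPM.

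Per length, the repressor genes were the most abundant of the 6. Over the 12 libraries Nr1d1 averaged 41.9 RPKM (CPM per kilobase of annotated exon) and Nr1d2 21.6 RPKM, followed by Npas2 at 9.11, Rora at 6.60, Clock at 5.74 and Arntl at 4.71 RPKM. With the longest transcript as the length, Nr1d1, Nr1d2 and Npas2 kept their order at 47.4, 25.0 and 10.3 RPKM, and the lower ones became Arntl at 8.88, Clock at 8.09 and Rora at 7.93 RPKM. The highest library exceeded the lowest by 1.77 times for Npas2, 1.61 times for Nr1d1, 1.53 times for Arntl, 1.42 times for Clock, 1.41 times for Rora and 1.33 times for Nr1d2.

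**Figure D1:**
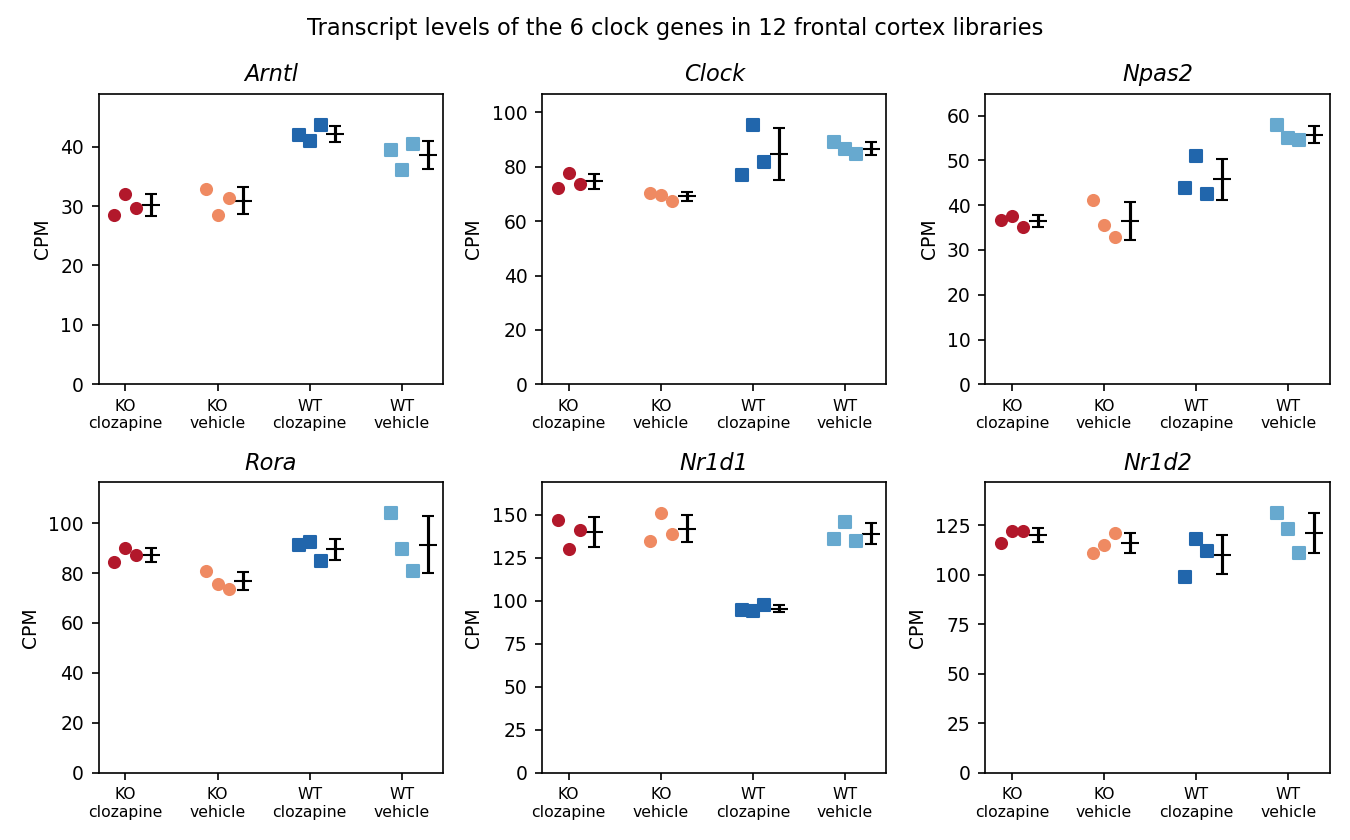
Level of each gene in CPM (y axis, from 0) in the 12 libraries by group (x axis; KO is the labelled knockout), with points for single libraries and black marks for the mean and SD of 3. Arntl is lower in all 6 KO libraries than in all 6 WT libraries, while Nr1d1 is low in the 3 WT clozapine libraries alone, at 93.8 to 97.5 CPM against 130 to 151 CPM elsewhere.

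Under vehicle, the activator genes were lower in the labelled knockout than in wild type while the repressor genes were level with it. Of the 6 genes, 4 passed as lower (Arntl, Clock, Npas2 and Rora) and 0 as higher, and Nr1d1 and Nr1d2 did not pass. Of all tested genes 9.16% passed in this comparison and 5.15% passed as lower (edgeR quasi-likelihood test, Benjamini-Hochberg adjusted p under 0.05). The median log2 change was -0.29 over the 6 genes and 0.00 over all genes. In bulk tissue, fewer cells of a type and less RNA per cell cannot be told apart.

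Npas2 (ENSMUSG00000026077.15, chromosome 1, 39193731 to 39363236), the forebrain partner of BMAL1, was at 41.2, 35.5 and 32.8 CPM in knockout vehicle, against 58.0, 55.0 and 54.5 CPM in wild-type vehicle. Every knockout library lay below every wild-type one, and the gene passed as lower, with a log2 change of -0.61 (SE 0.08; -34.6%) and an edgeR adjusted p = 0.000366. Its call held under every alternative tried, with adjusted p of 3.81e-09 to 0.0102.

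Clock (ENSMUSG00000029238.11, chromosome 5, 76209868 to 76304792), the other partner of BMAL1, was at 70.3, 69.6 and 67.3 CPM in knockout vehicle, against 89.1, 86.4 and 84.6 CPM in wild-type vehicle. These groups did not overlap, and Clock fell by 0.33 (SE 0.07, edgeR adjusted p = 0.00576). The call held in 20 of 21 alternatives, with adjusted p of 0.000108 to 0.15 over all of them. Relative to Clock, Npas2 was also lower: there were 0.586, 0.509 and 0.488 Npas2 counts per Clock count in knockout vehicle, against 0.651, 0.637 and 0.644 in wild-type vehicle, a ratio that needs no scaling between libraries.

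Arntl (ENSMUSG00000055116.7, chromosome 7, 113207465 to 113314126), which encodes the shared subunit BMAL1, was at 32.9, 28.5 and 31.4 CPM in knockout vehicle, against 39.4, 36.0 and 40.5 CPM in wild-type vehicle. The groups did not overlap, and Arntl fell by 0.32 (SE 0.07, edgeR adjusted p = 0.00876), with adjusted p of 0.00117 to 0.0447 under the alternatives.

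Rora (ENSMUSG00000032238.17, chromosome 9, 68653786 to 69388246), the activator at ROR elements, was at 81.0, 75.7 and 73.7 CPM in knockout vehicle, against 104, 89.8 and 80.7 CPM in wild-type vehicle. One knockout library lay above the lowest wild-type one. Rora fell by 0.25 (SE 0.07, edgeR adjusted p = 0.0418), but this call was lost in 12 of 21 alternatives, with adjusted p of 0.00915 to 0.313 over all of them. Among those were limma-voom (adjusted p = 0.0565), a fit of the compared groups alone (edgeR adjusted p = 0.103) and correcting for length and GC (edgeR adjusted p = 0.0526). Leaving out 1 library ended it for wild-type vehicle 1 (edgeR adjusted p = 0.189) or 3 (0.101), for knockout vehicle 2 (0.0612), 4 (0.0947) or 5 (0.141), and for knockout clozapine 3 (0.0534), 4 (0.0555) or 5 (0.0633).

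Nr1d1 (ENSMUSG00000020889.11, chromosome 11, 98767932 to 98775333), which encodes the repressor REV-ERBα, was at 135, 151 and 139 CPM in knockout vehicle, against 136, 146 and 135 CPM in wild-type vehicle. The groups overlapped and the log2 difference was 0.03 (95% interval -0.09 to 0.15, edgeR adjusted p = 0.826). Nr1d2 (ENSMUSG00000021775.10, chromosome 14, 18204054 to 18239127), its paralogue, was at 111, 115 and 121 CPM in knockout vehicle, against 131, 123 and 111 CPM in wild-type vehicle, with a log2 difference of -0.07 (95% interval -0.21 to 0.08, edgeR adjusted p = 0.602). The groups of Nr1d2 overlapped as well.

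Groups did not overlap for 3 of the 6 genes (Arntl, Clock and Npas2) in this comparison, as for 27.3% of all genes. Log2 changes across 17197 genes, which are not independent, ran with exonic length (Spearman -0.209), and Clock and Rora have 13727 and 13071 exonic bases. With length and GC content corrected, the log2 changes were -0.28 for Clock, -0.29 for Arntl and -0.62 for Npas2 (edgeR adjusted p = 0.00436, 0.0178 and 0.000485). Without wild-type vehicle 3 the log2 changes were -0.62 for Npas2, -0.37 for Arntl and -0.33 for Clock (edgeR adjusted p = 0.0025, 0.0128 and 0.026).

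The summed level of 8 activity-induced genes was 514 to 695 CPM in knockout vehicle and 793 to 961 CPM in wild-type vehicle, and 1 of them passed, Fosb, which fell by 0.83 (edgeR adjusted p = 0.0214). Of 6 glucocorticoid-responsive genes 1 passed, Sult1a1, which rose by 0.59 (edgeR adjusted p = 0.0311), with sums of 246 to 380 CPM in knockout vehicle and 220 to 328 CPM in wild-type vehicle. Among cell markers, 1 of 3 oligodendrocyte precursor genes (Pdgfra, log2 change 0.36) and 1 of 4 endothelial genes (Slco1a4, 0.35) passed as higher. These counts of 1 a list stand beside the 9.16% of all genes that passed. The rest of the endothelial list, Cldn5 (-0.23), Pecam1 (-0.18) and Flt1 (-0.13), was lower without passing, and the list median was -0.15. The sums of the precursor genes did not overlap, at 167 to 171 CPM in knockout vehicle and 146 to 161 CPM in wild-type vehicle. Besides Pdgfra, that list held Olig1, with a log2 change of 0.07 and overlapping groups. It also held Cspg4, which was lower (-0.11) with groups that did not overlap, and neither passed. The summed excitatory neuron markers spanned 5420 to 6310 CPM in knockout vehicle and 5950 to 6430 CPM in wild-type vehicle and overlapped, as did the glucocorticoid-responsive sums. The part of any of these in the clock gene differences was not tested.

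**Figure D2:**
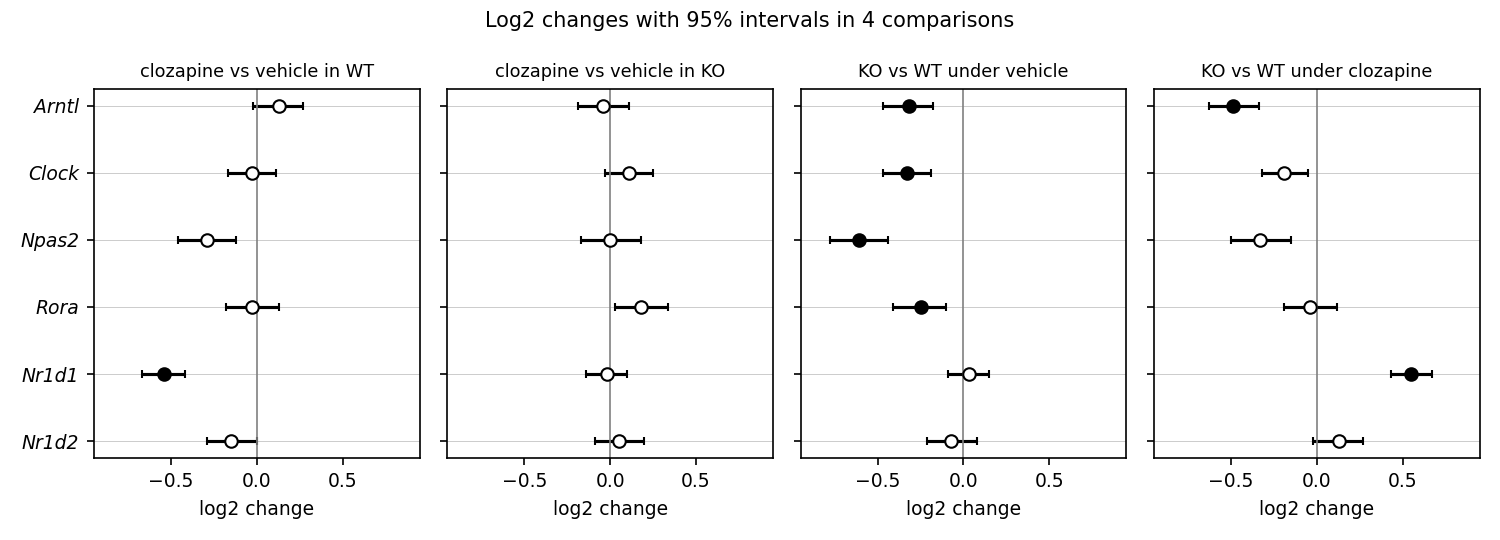
Log2 change (x axis) of the 6 genes (rows) in 4 comparisons with 95% intervals, where filled points have an edgeR adjusted p under 0.05 and KO is the labelled knockout. Filled points lie to the left for Arntl, Clock, Npas2 and Rora under vehicle, and in opposite directions for Arntl (-0.49) and Nr1d1 (0.55) under clozapine. The Nr1d1 points for clozapine in WT and for KO against WT under clozapine are descriptions, since the gene was chosen with them known or with the same libraries.

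Under clozapine, Arntl was again lower in the labelled knockout, and Nr1d1 differed in the opposite direction. Arntl was at 28.5, 32.1 and 29.6 CPM in knockout clozapine, against 41.9, 41.0 and 43.7 CPM in wild-type clozapine. All knockout libraries lay below all wild-type ones, and the log2 change of Arntl was -0.49 (SE 0.07; -28.7%) with an edgeR adjusted p = 0.00128, a call that held under every alternative (adjusted p of 4.15e-07 to 0.0143). Past the threshold were 2 of the 6 genes, Arntl and Nr1d1, where 2.0% of all genes passed, and groups did not overlap for 3 of 6 (these and Npas2), as for 22.5% of all genes. Nothing is read from either count, since Nr1d1 was chosen with its low wild-type clozapine level known. The median log2 change of the 6 genes was -0.11.

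Nr1d1 was at 147, 130 and 141 CPM in knockout clozapine, against 94.8, 93.8 and 97.5 CPM in wild-type clozapine. The lowest knockout library was well above the highest wild-type one, with a log2 difference of 0.55 (SE 0.06), and the wild-type clozapine libraries behind it are those whose low Nr1d1 was known beforehand. Nr1d2 had a difference in the same direction that did not pass, at 116, 122 and 122 CPM in knockout clozapine, against 98.9, 118 and 112 CPM in wild-type clozapine (log2 difference 0.13, 95% interval -0.02 to 0.27, edgeR adjusted p = 0.386). There were 1.27, 1.07 and 1.16 Nr1d1 counts per Nr1d2 count in knockout clozapine, against 0.959, 0.793 and 0.870 in wild-type clozapine, so the paralogues differed unequally.

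Npas2 was at 36.7, 37.7 and 35.2 CPM in knockout clozapine, against 43.9, 51.1 and 42.4 CPM in wild-type clozapine. Its groups did not overlap, but the log2 change of -0.33 (SE 0.08) narrowly missed the threshold (edgeR adjusted p = 0.0509). It passed in 6 of 21 alternatives, with adjusted p of 0.00529 to 0.202 over all of them, among them DESeq2 (adjusted p = 0.0173) and edgeR without knockout vehicle 2 (adjusted p = 0.0322) or 5 (0.0307).

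Clock was at 72.3, 77.6 and 73.7 CPM in knockout clozapine, against 77.1, 95.5 and 81.8 CPM in wild-type clozapine, where replicate 3 was the highest of all 12 libraries. The groups overlapped (log2 difference -0.19, 95% interval -0.32 to -0.05, edgeR adjusted p = 0.164). Rora was at 84.6, 89.9 and 87.1 CPM in knockout clozapine, against 91.1, 92.6 and 84.9 CPM in wild-type clozapine, again with overlap (log2 difference -0.04, 95% interval -0.19 to 0.12, edgeR adjusted p = 0.850). Summed excitatory neuron markers were at 6540 to 6650 CPM in knockout clozapine and at 5530 to 5700 CPM in wild-type clozapine, with 1 of 5 genes (Camk2a, log2 change 0.26) passing as higher. Summed activity-induced genes were at 542 to 913 CPM in knockout clozapine and at 714 to 934 CPM in wild-type clozapine. Sums that did not overlap were also those of interneuron markers (911 to 931 CPM in knockout clozapine and 873 to 890 CPM in wild-type clozapine), striatal projection neuron markers (143 to 171 and 128 to 135 CPM), endothelial markers (150 to 160 and 165 to 186 CPM) and choroid plexus markers (4.70 to 8.36 and 3.47 to 4.41 CPM), in the same order of groups. Single striatal genes ran both ways, with Drd1 (-0.14), Adora2a (-0.09) and Rgs9 (-0.18) lower in knockout clozapine and Ppp1r1b (0.24) and Gpr6 (0.58) higher. Their median log2 change was -0.09. Excitatory neuron genes ran from -0.21 to 0.26 with a median of -0.04. The part of any of these in the clock gene differences was not tested.

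In wild-type mice, Nr1d1 set clozapine apart from vehicle. It was at 94.8, 93.8 and 97.5 CPM in wild-type clozapine, against 136, 146 and 135 CPM in wild-type vehicle, a log2 difference of -0.54 (SE 0.06) or -31.5%. Without any 1 library the difference stayed between -0.57 and -0.51. It was 1 of the 6 genes past the threshold, where 0.816% of all genes passed, and nothing is read from that count, since this value was known when the genes were chosen. The median log2 change over the 6 genes was -0.09.

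The Nr1d1 gene lies tail to tail with Thra, the gene of thyroid hormone receptor alpha on the opposite strand, and 263 bases or 8.55% of its exonic length overlap Thra exons. Whether strand was used in counting is not stated, so reads from this stretch cannot be told apart. Thra was at 608, 636 and 651 CPM in wild-type clozapine, against 626, 566 and 637 CPM in wild-type vehicle, with overlapping groups (log2 change 0.05, edgeR adjusted p = 0.799). Its log2 change in the other simple comparisons ranged from 0.06 to 0.09 with adjusted p of 0.440 or more.

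Nr1d2 was at 98.9, 118 and 112 CPM in wild-type clozapine, against 131, 123 and 111 CPM in wild-type vehicle, with overlap and a log2 difference of -0.15 (95% interval -0.29 to 0.00, edgeR adjusted p = 0.430). Arntl was at 41.9, 41.0 and 43.7 CPM in wild-type clozapine, against 39.4, 36.0 and 40.5 CPM in wild-type vehicle. Its groups did not overlap, but the log2 difference of 0.13 did not pass (95% interval -0.02 to 0.27, edgeR adjusted p = 0.496).

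Npas2 was at 43.9, 51.1 and 42.4 CPM in wild-type clozapine, against 58.0, 55.0 and 54.5 CPM in wild-type vehicle. The groups did not overlap, and the log2 difference of -0.29 (SE 0.08) did not pass (edgeR adjusted p = 0.124). It did pass without wild-type clozapine 3 (edgeR adjusted p = 0.0455) and with no low-count filter (edgeR adjusted p = 0.0202), with adjusted p of 0.0202 to 0.474 over all alternatives. Per Clock count there were 0.569, 0.535 and 0.518 Npas2 counts in wild-type clozapine, against 0.651, 0.637 and 0.644 in wild-type vehicle.

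Clock (log2 difference -0.03, 95% interval -0.17 to 0.11, edgeR adjusted p = 0.906) and Rora (-0.03, 95% interval -0.18 to 0.13, edgeR adjusted p = 0.925) had overlapping groups in wild type. Clock was at 77.1, 95.5 and 81.8 CPM in wild-type clozapine, against 89.1, 86.4 and 84.6 CPM in wild-type vehicle, and Rora at 91.1, 92.6 and 84.9 CPM in wild-type clozapine, against 104, 89.8 and 80.7 CPM in wild-type vehicle. Across the 6 genes 3 had groups that did not overlap (Nr1d1, Arntl and Npas2), as had 15.6% of all genes. Nothing is read from this count either, since Nr1d1 was chosen with its values known. Summed excitatory neuron markers were at 5530 to 5700 CPM in wild-type clozapine and at 5950 to 6430 CPM in wild-type vehicle, and summed red blood cell genes at 212 to 437 CPM in wild-type clozapine and at 138 to 180 CPM in wild-type vehicle, and by edgeR 0 of 5 genes passed in either list (1 excitatory and 2 red blood cell genes at an unadjusted p under 0.05). Choroid plexus sums did not overlap either, at 3.47 to 4.41 CPM in wild-type clozapine and 4.74 to 60.6 CPM in wild-type vehicle. Their part in the clock gene values was not tested.

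In the labelled knockout, none of the 6 genes passed for clozapine against vehicle by edgeR's quasi-likelihood test, where 0.0231% of all genes did. DESeq2 and limma-voom also called 0 of the 6, and at an unadjusted p under 0.05 there was 1, Rora. Rora was at 84.6, 89.9 and 87.1 CPM in knockout clozapine, against 81.0, 75.7 and 73.7 CPM in knockout vehicle. Its groups did not overlap (log2 difference 0.18, 95% interval 0.03 to 0.34, edgeR adjusted p = 0.311).

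Clock, too, had groups that did not overlap, at 72.3, 77.6 and 73.7 CPM in knockout clozapine, against 70.3, 69.6 and 67.3 CPM in knockout vehicle (log2 difference 0.11, 95% interval -0.03 to 0.25, edgeR adjusted p = 0.539). Such a gap was seen for 2 of the 6 genes and for 18.7% of all genes. Nr1d1 was at 147, 130 and 141 CPM in knockout clozapine, against 135, 151 and 139 CPM in knockout vehicle. The groups overlapped (log2 difference -0.02, 95% interval -0.14 to 0.10). The differences of Arntl (-0.04, 95% interval -0.19 to 0.11), Npas2 (0.00, 95% interval -0.17 to 0.18) and Nr1d2 (0.05, 95% interval -0.09 to 0.20) came from overlapping groups, with edgeR adjusted p of 0.840 to 0.997. Summed excitatory neuron markers were at 6540 to 6650 CPM in knockout clozapine and at 5420 to 6310 CPM in knockout vehicle. Interneuron marker sums were at 911 to 931 CPM in knockout clozapine and at 817 to 909 CPM in knockout vehicle. Single genes ran both ways, from -0.32 to 0.18 (median 0.03) for the excitatory list and from -0.12 to 0.16 (median 0.07) for the interneuron list. The part of either was not tested.

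The interaction subtracts the wild-type clozapine effect from the one in the labelled knockout and asks whether the drug acts differently with Hdac2 targeted. For Nr1d1 it was a log2 difference of 0.52 (SE 0.08, 95% interval 0.35 to 0.69), which was known when the gene was chosen. Nr1d1 was 1 of the 6 genes past the threshold, against 0.654% of all genes, and nothing is read from that count. For the other 5 genes it was 0.29 for Npas2, 0.21 for Rora, 0.20 for Nr1d2, 0.14 for Clock and -0.17 for Arntl, with edgeR adjusted p of 0.282 to 0.552. Their 95% intervals had lower ends of 0.05 for Npas2, -0.01 for Rora, -0.01 for Nr1d2, -0.05 for Clock and -0.37 for Arntl. The simple comparisons share groups with each other and with the interaction, so they are not independent readings.

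Set against each other within a library, Nr1d1 and Arntl gave a ratio free of library scaling. There were 5.16, 4.06 and 4.78 Nr1d1 counts per Arntl count in knockout clozapine and 4.12, 5.29 and 4.44 in knockout vehicle. In wild-type mice there were 2.27, 2.29 and 2.23 with clozapine and 3.45, 4.06 and 3.34 with vehicle. The wild-type clozapine libraries had the lowest ratios of the 12, a description only, since their low Nr1d1 was known when the gene was chosen. Knockout and wild-type vehicle libraries were separated by little, since the lowest knockout vehicle library was at 4.12 and the highest wild-type vehicle library at 4.06.

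**Figure D3:**
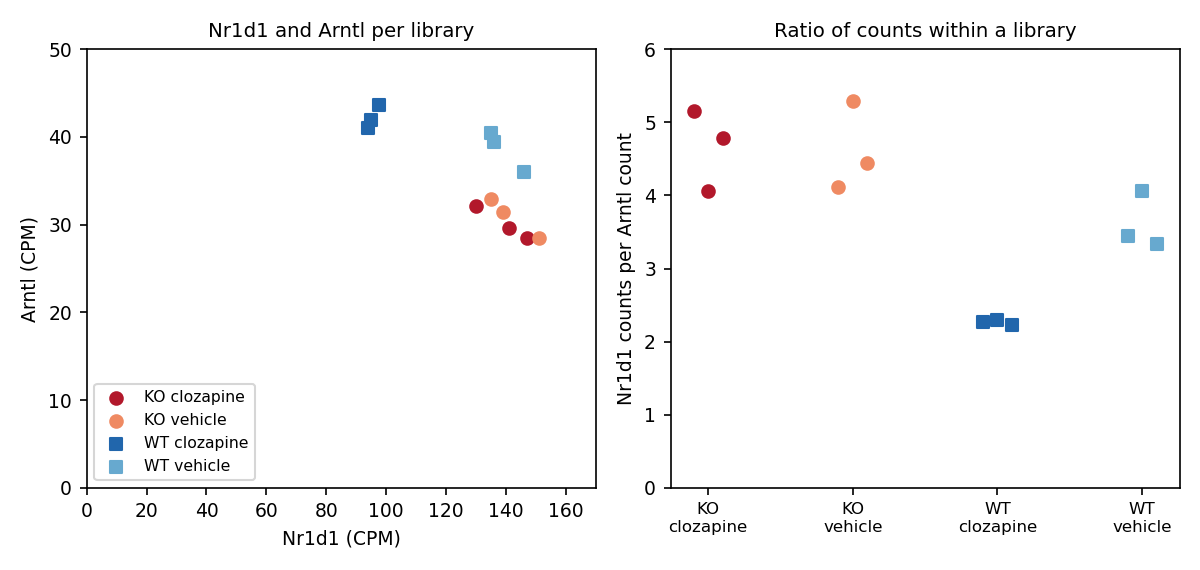
Left, Nr1d1 (x axis) against Arntl (y axis) in CPM, 1 point per library, and right, Nr1d1 counts per Arntl count (y axis) in each library by group (x axis; KO is the labelled knockout). KO libraries of both treatments lie at low Arntl with ratios of 4.06 to 5.29, and WT clozapine libraries at low Nr1d1 and high Arntl with ratios of 2.23 to 2.29. The low Nr1d1 of the WT clozapine libraries was known when the gene was chosen.

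Other clock genes, 22 in all and all tested, gave mixed counts. For labelled knockout against wild type under clozapine 4 rose and 1 fell, where 1.48% of all genes passed as higher and 0.515% as lower. Under vehicle 2 rose and 0 fell, where 4.01% of all genes passed as higher and 5.15% as lower. For clozapine 0 rose and 1 fell in wild type, where 0.191% of all genes passed as higher and 0.625% as lower. By edgeR 0 passed in the labelled knockout, where 0.0231% of all genes did. At an unadjusted p under 0.05 there were 5 in the labelled knockout, beside 2117 of all 17286 tested genes. In the interaction 1 was past the threshold as positive, where 0.526% of all genes were. The median log2 changes in that order were 0.09, -0.06, -0.02, 0.07 and 0.10.

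Of 12 E-box driven genes, those that BMAL1 and its partners activate, 4 rose under clozapine in the labelled knockout relative to wild type while Arntl fell. Of all tested genes 1.48% passed as higher in that comparison. Ciart, which encodes a repressor of CLOCK and BMAL1, was at 25.2, 21.1 and 27.8 CPM in knockout clozapine, against 11.3, 10.2 and 11.5 CPM in wild-type clozapine (log2 change 1.17, SE 0.14, edgeR adjusted p = 0.00103). Under vehicle it was at 17.7, 26.4 and 26.5 CPM in knockout and 15.3, 16.5 and 16.6 CPM in wild type (log2 change 0.55, edgeR adjusted p = 0.0266). Bhlhe41, the gene of the E-box repressor DEC2, rose under both treatments (log2 change 0.37 under clozapine and 0.27 under vehicle, edgeR adjusted p = 0.00933 and 0.0187).

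Dbp, a clock output factor, was at 140, 119 and 137 CPM in knockout clozapine, against 61.5, 63.4 and 69.5 CPM in wild-type clozapine (log2 change 1.03, SE 0.07, edgeR adjusted p = 5.5e-07), and at 107, 93.4 and 98.6 CPM in wild-type vehicle. It was the gene that fell with clozapine in wild type (log2 change -0.62, SE 0.07, edgeR adjusted p = 0.000587) and the positive one in the interaction. Usp2, a deubiquitinase gene, rose by 0.40 in the labelled knockout relative to wild type under clozapine (edgeR adjusted p = 0.00103). Per1 and Per2, the period genes of the negative limb, did not pass in any comparison, and Per2 spanned 24.4 to 49.5 CPM within wild-type clozapine alone. Cry1, which encodes a repressor of CLOCK and BMAL1, had log2 changes from -0.09 to 0.16 in the simple comparisons with edgeR adjusted p of 0.607 to 0.863.

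Nfil3, which like Arntl is repressed by the REV-ERBs, differed in the same direction as Arntl between genotypes. It was at 9.23, 10.0 and 8.15 CPM in knockout clozapine, against 18.0, 14.1 and 13.3 CPM in wild-type clozapine. The groups did not overlap, and Nfil3 fell by 0.73 (SE 0.12, edgeR adjusted p = 0.00618). Under vehicle its log2 difference of -0.37 did not pass (edgeR adjusted p = 0.0718). Its promoter window held TAGGTCA on the reverse strand from base -12, and the Ciart window held CACGTG at 3 places. The 1 window of Dbp was searched as well and held none of the motifs.

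**Figure D4:**
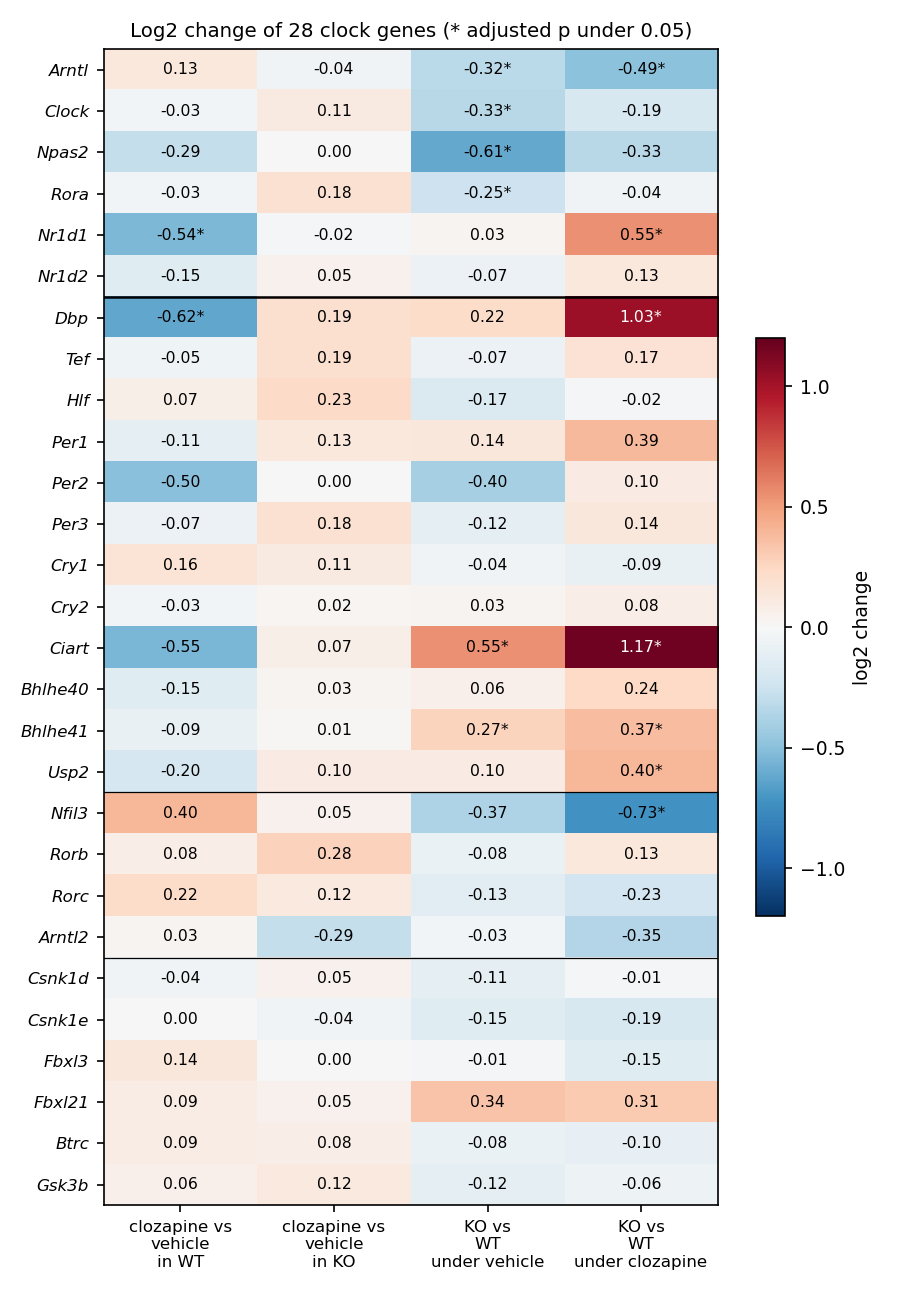
Log2 change (colour and printed value) of 28 clock genes (rows, the 6 described here above the thick line) in 4 comparisons (columns; KO is the labelled knockout), with stars at an edgeR adjusted p under 0.05. In the KO against WT column under clozapine, Arntl and Nfil3 are starred and blue, and Nr1d1, Dbp, Ciart, Bhlhe41 and Usp2 are starred and red. The Nr1d1 stars carry no independent weight, since the gene was chosen with its values known.

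REV-ERBα represses by recruiting a co-repressor complex that contains HDAC3. Tbl1xr1, a subunit gene of that complex, was at 73.9, 67.9 and 66.2 CPM in knockout vehicle, against 56.8, 55.0 and 59.3 CPM in wild-type vehicle. The groups did not overlap, and Tbl1xr1 rose (log2 change 0.28, SE 0.05, edgeR adjusted p = 0.00481). Under clozapine its log2 difference between genotypes was 0.06 and did not pass (edgeR adjusted p = 0.625).

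Transcripts most like each gene over the 12 libraries were sought among 13124 protein-coding genes by Pearson correlation of log2 CPM. These correlations carry the group structure and the shared scaling of the libraries. The closest were Zfp74 for Arntl (r = 0.932), Bdp1 for Clock (0.973), Ptk2 for Npas2 (0.967), Slmap for Rora (0.925), S100a6 for Nr1d1 (0.937) and Ndc1 for Nr1d2 (0.898). Next came Gon7 and Hsf4 for Arntl (0.922 and 0.896), Kdm7a and Pknox1 for Clock (0.953 and 0.952) and Hsph1 and Synj2 for Npas2 (0.961 and 0.953). For Rora they were Enah and Wnt7a (0.916 and 0.912), for Nr1d1 Grik5 and Gpsm2 (0.927 and 0.909), and for Nr1d2 Cdyl and Nrsn1 (0.873 and 0.840). None of the 6 genes was among the 3 closest of another.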

How the data were processed

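Frontal cortex RNA was purified on RNeasy columns and sequenced as Illumina mRNA libraries, per the labels' protocols. STAR 2.5.1b aligned the reads to GRCm38 and featureCounts assigned them to genes, per the submitters' processing notes. The authors deposited estimated counts, a few not whole (for the 6 genes, 1 value of Nr1d1 and 5 of Nr1d2), while the use of strand and the sharing of reads between genes are not given in the sources used here. Counts were rounded for the tests.

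Gene identifiers were matched without version to GENCODE M21 (GRCm38), which named 46574 of 47069, and gave coordinates and exonic lengths. Genes passing filterByExpr (17286 of 47069, 99.9% of counts) were tested with edgeR 4.0.16 (R 4.3.3) in a single model of all 12 libraries, with library sizes scaled by TMM, the robust quasi-likelihood test and Benjamini-Hochberg adjustment over all tested genes at a threshold of 0.05. A design with whole counts had been written; the rounding departs from it. There were 5 contrasts: the drug within either genotype, the genotype within either treatment, and their interaction. Labels do not say whether libraries come from separate animals, so p-values reflect library-to-library spread, which may be technical. Intervals are 95% from the fit. RPKM is CPM per kilobase of the union of annotated exons. Statistics were checked on simulated counts.

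All 6 genes are named in every comparison, other clock and co-repressor genes where they passed, together with Dbp, Per1, Per2, Cry1 and Nfil3, and for each gene the 3 most correlated genes with a mean of at least 1 CPM. One result among the co-repressor genes, and the counts over that list, are not reported here. The members and lists were chosen with earlier results of these data known, and the promoter motifs after the values were seen. Promoter windows are RefSeq's, matched by symbol for all 6 genes. Alternatives were DESeq2 1.42.0, limma-voom (limma 3.58.1), RLE size factors, other low-count filters, fits of the compared groups, a replicate block, a correction for length and GC content (17197 genes), unrounded counts, a threshold of 0.10 and leaving out each library.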

Additional observations from a re-analysis of the deposited data

Results flagged for a closer look

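The effect of clozapine on Nr1d1 differed between the genotypes, by 0.52 on the log2 scale (labelled knockout minus wild type), past the 0.05 threshold of the interaction term in the fit across all genes. That value was known when the gene was chosen, and the call ended with a replicate block (0.49). It is no independent support. For Dbp, a clock output gene, the same difference was 0.81 (SE 0.10, edgeR adjusted p = 0.00195), with means of 132 ± 11.3 CPM in knockout clozapine, 116 ± 4.16 CPM in knockout vehicle, 64.8 ± 4.16 CPM in wild-type clozapine and 99.8 ± 7.02 CPM in wild-type vehicle (SD, n = 3 each). The list that holds Dbp was also chosen with earlier results of these libraries known, so its value is no independent support either. Outlying libraries within a group were not tested for, since each group has 3.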

How the results depend on the processing

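Over 624 refits of the 30 log2 changes of the 6 genes, 590 kept direction and side of the threshold (values rounding to 0.00 have no direction), 14 lost a call, 8 gained one and 12 changed sign, 0 of these among the called values. The lost calls were those of Rora under vehicle and, with a replicate block, of Clock under vehicle (-0.23, edgeR adjusted p = 0.15) and of the Nr1d1 interaction. The sign changed for Clock in wild type (0.05 with the replicate block, 0.03 without wild-type clozapine 2, -0.13 to 0.03 over all libraries left out), Rora in wild type (0.06 with the replicate block, 0.07 without wild-type vehicle 1, -0.11 to 0.07 over all), Rora between genotypes under clozapine (0.02 with the length and GC correction) and Nr1d2 with the replicate block (0.04 between genotypes under vehicle, -0.01 for clozapine in the labelled knockout). For Nr1d1 it changed between genotypes under vehicle (-0.02 both with the length and GC correction and without knockout vehicle 4) and for clozapine in the labelled knockout (0.01 with that correction, 0.02 without knockout vehicle 4, 0.03 without knockout clozapine 4, -0.06 to 0.03 over all). The cause was not tested.

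Of the 6 genes, 4 were called between genotypes under vehicle (3 to 4 with 1 library left out), and 2, Arntl and Npas2, with the replicate block. For clozapine in wild type 1 was called (1 to 2 with 1 library left out, 2 without wild-type clozapine 3 and 2 with no low-count filter), for the interaction 1 (1 to 1, and 0 with the replicate block), between genotypes under clozapine 2 (2 to 3) and for clozapine in the labelled knockout 0 (0 to 0). Whether a shared number marks paired libraries is not known. Deviations of same-numbered libraries from their group means correlated from -0.1 to 0.207, which cannot decide it with 3 libraries a group. The replicate block changed no other call of the 6 genes.

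Counts over all genes moved more. For clozapine in wild type 141 genes were called, 287 by DESeq2, 304 with no low-count filter, 92 on the compared groups, 18 with the replicate block, 260 at 0.10, and 20 to 219 with 1 library left out (leaving out wild-type vehicle 1 gave 71 and 3 gave 20, wild-type clozapine 2 gave 91 and 5 gave 36, knockout vehicle 5 gave 219, knockout clozapine 4 gave 89). In the labelled knockout 4 were called (2117 at an unadjusted p under 0.05), 263 by DESeq2, 2 by limma-voom, 2 under RLE scaling, 213 unfiltered, 7 on the compared groups, 174 with the replicate block, 2 with the length and GC correction, 113 at 0.10, and 0 to 25 with 1 library left out (wild-type vehicle 1 gave 23 and 3 gave 2, wild-type clozapine 2 gave 15 and 5 gave 9, knockout vehicle 4 gave 25, knockout clozapine 3 gave 2, 4 gave 0 and 5 gave 0). Between genotypes under vehicle 1584 were called, 385 with the replicate block, 2480 at 0.10, and 617 to 1722 with 1 library left out (wild-type vehicle 1 gave 954 and 3 gave 617, knockout vehicle 2 gave 837 and 5 gave 943). Under clozapine 345 were called, 547 by DESeq2, 566 with no low-count filter, 697 at 0.10, and 59 to 425 with 1 library left out (wild-type clozapine 3 gave 126 and 5 gave 192, knockout clozapine 3 gave 59, 4 gave 197 and 5 gave 165). For the interaction 113 were called, 359 by DESeq2, 302 with no low-count filter, 12 with the replicate block, 74 with the length and GC correction, 258 at 0.10, and 13 to 181 with 1 library left out (wild-type vehicle 1 gave 54 and 3 gave 19, wild-type clozapine 5 gave 23, knockout vehicle 2 gave 54, 4 gave 181 and 5 gave 40, knockout clozapine 3 gave 21, 4 gave 24 and 5 gave 13).

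By deviations from group means the most alike genes were others, such as Rp9 for Nr1d1 (r = 0.945) and Aif1l for Arntl (r = 0.890). With 3 libraries a group, the differences between libraries limit the precision more than depth does.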

Other observations

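Within each group but wild-type clozapine, libraries with more Nr1d1 held less Arntl. In knockout clozapine the libraries with 147, 130 and 141 CPM of Nr1d1 had 28.5, 32.1 and 29.6 CPM of Arntl, and in knockout vehicle those with 135, 151 and 139 CPM had 32.9, 28.5 and 31.4 CPM. In wild-type vehicle the libraries with 136, 146 and 135 CPM of Nr1d1 had 39.4, 36.0 and 40.5 CPM of Arntl. In wild-type clozapine, where Nr1d1 spanned only 93.8 to 97.5 CPM, the order ran the other way. There the libraries with 94.8, 93.8 and 97.5 CPM of Nr1d1 had 41.9, 41.0 and 43.7 CPM of Arntl. Deviations of log2 CPM from the group means correlated at r = -0.871 and rho = -0.846 over the 12 libraries (exact permutation within groups over 1296 arrangements, 2-sided p = 0.0177 for each). Adjusted over the 15 pairs of the 6 genes, neither passed (permutation p = 0.0887 and 0.0926). Without the 2 libraries farthest from the median of Arntl r was -0.770, and with length and GC content corrected -0.833.

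Among the other pairs, Clock and Npas2 had a positive correlation that did not pass after adjustment (r = 0.714, rho = 0.769, exact permutation p = 0.0139 for each, adjusted 0.0887 and 0.0926), with r = 0.682 without the 2 libraries farthest in Clock and 0.626 after the correction. The same held for Npas2 and Rora (r = 0.588, rho = 0.699, exact permutation p = 0.00849 and 0.0224, adjusted 0.0887 and 0.0926), with r = 0.578 and 0.504. For Clock and Rora r was 0.422 (exact permutation p = 0.0895, adjusted 0.336). For Arntl r was 0.0115 with Clock, 0.161 with Npas2 and 0.0751 with Rora (exact permutation p = 0.968, 0.741 and 0.885). For Nr1d1 and Nr1d2 r was -0.0246 (exact permutation p = 0.941). These pairs were looked at after the levels had been seen.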
